A study of Mus musculus with 26 samples.

Results

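The FMRP, Pumilio and CPEB translational regulators were followed in ribosome footprinting and RNA-Seq of the mouse caudate putamen in 3 LRRK2 models. The 9 members were given by gene symbol: *Fmr1* and its paralogs *Fxr1* and *Fxr2*, the FMRP partners *Cyfip1* and *Cyfip2*, the Pumilio gene *Pum2*, and the CPEB genes *Cpeb2*, *Cpeb3* and *Cpeb4*. Of these, 8 were found in each of the 3 tables of the study, which hold 8514 genes in common. *Cpeb2* was not analysed here. The tables list 8576 transcripts in the GS table (GS LRRK2 TG), 8576 in the GS/DA table (GS/DA LRRK2 TG) and 9561 in the KO table (LRRK2 KO), with 1 transcript for each of the 8 members.

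FMRP, the product of *Fmr1*, is an RNA-binding protein that sits on many neuronal mRNAs with ribosomes and holds back their translation, and its loss causes fragile X syndrome. *Fxr1* and *Fxr2* encode close relatives that bind FMRP. The CYFIP proteins bind FMRP and the cap-binding protein eIF4E, and they are also subunits of the WAVE complex, which drives actin branching downstream of Rac1. Pumilio proteins bind a short UGUA-containing word in 3′UTRs and recruit deadenylases, whereas CPEB proteins bind U-rich elements in 3′UTRs and set poly(A) tail length and translation. In neurons these proteins act near synapses, and spiny projection neurons of the caudate putamen receive the cortical and dopamine inputs whose plasticity depends on local translation.

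All mice were of the strain C57BL/6 and 3 months old by the labels, and the tissue was labelled striatum. GS LRRK2 TG mice carried G2019S LRRK2 and GS/DA LRRK2 TG mice carried G2019S/D1994A LRRK2, in which the D1994A change abolishes kinase activity. Both transgenes stood under a tetracycline-regulated promoter driven by CaMKII-tTA, a driver active in forebrain excitatory and striatal neurons, and doxycycline chow kept them off until weaning. Both are written GS TG and GS/DA TG below. Their controls were non-TG mice, labelled wild-type, and LRRK2 KO mice were compared with WT mice. The labels give 3 footprinting and 3 RNA-Seq libraries for non-TG control, 2 and 2 for GS LRRK2 TG, 2 and 2 for GS/DA LRRK2 TG, and 3 and 2 each for WT and LRRK2 KO. Each library came from pooled tissue of 3 mice of both sexes, so p-values measure the spread between these pools and libraries. The ventral midbrain libraries, 1 each of WT and LRRK2 KO, were not used here.

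The deposited values are group means of normalized reads in the CDS, and each table was normalized separately. Raw counts are integers and a size factor is 1 constant per library, so the counts of the 2 libraries behind a mean could be solved for in 10 of the 12 columns, for 98.5 to 99.97% of transcripts of a column. Neither non-TG column of the GS table was resolved. The recovered libraries held 2865413 to 19171629 reads in the CDS. Libraries were matched between genotype and control by the contrast of their 2 libraries that both groups have in common, and the matched pairs are called set 1 and set 2. This matching was read from the values and not from labels, in each assay separately. Set 1 was named as the set with relatively more reads of CDS low in GC content, read from the group with the stronger trend. Footprinting and RNA-Seq libraries of the same set number were not matched to each other and need not come from the same pools. The log2 ratio of the 2 RNA-Seq libraries ranked transcripts alike in both transgenic pairs of groups, with a Spearman's rho across transcripts of 0.978 for GS/DA TG and 0.978 for GS TG against the GS/DA table's control libraries, and less so in LRRK2 KO, with a rho of 0.686. The corresponding rho for footprinting was 0.741, 0.627 and 0.764. The RNA-Seq libraries of the transgenic tables stood far apart. Among transcripts with a group mean above 300, the SD of the log2 ratio of set 1 over set 2 was 1.44 in non-TG control, 1.71 in GS TG and 1.70 in GS/DA TG, against 0.34, 0.42 and 0.36 in footprinting. That RNA-Seq ratio had a rho with CDS GC content across transcripts of -0.77, -0.79 and -0.80. The negative sign follows from how set 1 was named, here and in footprinting, and only the size describes the libraries. The footprinting ratio had a rho with GC content of -0.45 in non-TG control, -0.33 in GS TG and -0.48 in GS/DA TG. In the KO table the SD was 0.72 in WT and 0.67 in LRRK2 KO for RNA-Seq and 0.79 and 0.75 for footprinting, and the rho with GC content was 0.02 and -0.26 for RNA-Seq and -0.63 and -0.29 for footprinting.

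*Lrrk2* was examined first because it checks the labels. In the GS/DA table, its normalized footprinting reads were 1445 and 1224 in the non-TG control libraries of set 1 and set 2 and 7267 and 4766 in the GS/DA TG libraries. Both transgenic libraries lay above both controls. Its RNA-Seq reads were 5233 and 560 in non-TG control and 5038 and 404 in GS/DA TG, so the groups overlapped and the libraries of 1 group differed more than the groups. In the GS TG libraries, brought to 1 scale with those same non-TG control libraries, footprinting reads of *Lrrk2* were 6696 and 3161 against 1089 and 925 in non-TG control, and RNA-Seq reads were 3676 and 223 against 4903 and 517. Again the footprinting groups stood apart and the RNA-Seq groups overlapped. In the KO table footprinting reads were 690 and 400 in WT and 150 and 102 in LRRK2 KO, and RNA-Seq reads were 1278 and 733 in WT and 423 and 270 in LRRK2 KO, with no overlap in either assay. Footprinting of the targeted gene thus lay on the side its label gives in all 3 genotypes, which does not tell GS TG from GS/DA TG. RNA-Seq of *Lrrk2* did so only in LRRK2 KO: its log2 change was -0.05 in set 1 and -0.47 in set 2 of GS/DA TG and -0.42 and -1.22 in GS TG, below the matched control each time. With library set as a block, limma gave a log2 footprinting change of *Lrrk2* of 2.14 (SE 0.10, adjusted p = 0.00205) in GS/DA TG, 2.19 (SE 0.18, adjusted p = 0.0164) in GS TG and -2.00 (SE 0.19, adjusted p = 3.69e-22) in LRRK2 KO. Without the block the limma adjusted p was 0.929, 1.00 and 1.00. The sets used as blocks were matched from these same reads, so the blocked SE and p can be too small. The TE difference of *Lrrk2*, from group means, was 2.26 in GS/DA TG and -0.58 in LRRK2 KO. It was 1.2 in GS TG with the GS table's own controls. Single-library pairings of GS TG with the GS/DA table's control libraries gave 2.19 to 3.84.

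GS TG and GS/DA TG share the non-TG control by label, yet the non-TG control means differ between the 2 transgenic tables. The *Lrrk2* footprinting mean of non-TG control was 2524 in the GS table and 1335 in the GS/DA table. After the median shift between the tables was subtracted, this was a log2 difference of 1.26, rank 1 of 8576 transcripts, where the SD of all transcripts was 0.08. The RNA-Seq shift of *Lrrk2* was of the opposite sign, at -0.33, rank 8472 from the top, where the SD was 0.16. For the 8 members the same footprinting shifts lay between -0.04 and 0.04. Their RNA-Seq shifts, against an SD of 0.16, were 0.21 for *Fxr1*, 0.14 for *Fmr1*, 0.08 for *Cyfip2*, 0.06 for *Fxr2*, -0.03 for *Cpeb4*, -0.04 for *Pum2*, -0.10 for *Cyfip1* and -0.15 for *Cpeb3*. Below, TE differences and changes of group means of GS TG use the GS table's own controls, and values of single libraries and limma fits use those of the GS/DA table. The members' TE differences are given with both.

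The labelled tissue was checked with striatal spiny neuron markers. Of 12 symbols, 10 were in every table, with *Drd1* and *Penk1* listed under their other symbols *Drd1a* and *Penk*, and *Ppp1r1b* was the most abundant of them, with a footprinting mean of 42124 in non-TG control of the GS/DA table. The log2 change of their summed reads was -0.11 in footprinting and -0.11 in RNA-Seq for GS TG, -0.31 and -0.18 for GS/DA TG, and 0.04 and 0.08 for LRRK2 KO. Of the midbrain dopamine neuron markers, *Th*, *Slc6a3* and *Slc18a2* were in no table and *Ddc* was. Markers of other sources differed between libraries of the transgenic tables. In RNA-Seq of set 1 and set 2, the summed reads of 6 oligodendrocyte markers were 14922 and 40458 in non-TG control, 15250 and 43047 in GS/DA TG and 16193 and 45851 in GS TG, those of 3 of 5 microglia markers 968 and 2071, 1055 and 2518, and 1098 and 2225, and those of 2 of 4 blood markers 17847 and 27899, 11126 and 28047, and 8357 and 37699, where GS TG is on its own scale. Set 2 was the higher for these markers in every group. The 5 astrocyte markers were higher in set 1, at 7908 and 5633, 9962 and 6373, and 7433 and 5166. The sum of the 3 of 5 cortical neuron markers in the transgenic tables, led by *Slc17a7*, was 1630 and 1056 footprinting reads in non-TG control and 4104 and 2574 in GS/DA TG, and 915 and 1965 RNA-Seq reads against 2408 and 4030, with no overlap between the groups in either assay. The log2 changes of the group means of this sum were 1.31 and 1.16 in GS/DA TG, -0.24 and -0.79 in GS TG, and -0.09 and -0.26 in LRRK2 KO, where all 5 symbols were listed. The GS TG libraries had 2302 and 431 footprinting and 1410 and 732 RNA-Seq reads of these markers against control means of 1612 and 1851 in the GS table, so that the footprinting library of set 1 lay above the control mean and that of set 2 below it. *Ttr*, the only one of 3 choroid plexus markers in the tables, had 1193 and 17056 footprinting reads in the non-TG control libraries and 5162 and 1137 in GS/DA TG, and 1037 and 408 in GS TG on its own scale. In the KO table, astrocyte markers had 2405 and 5362 footprinting reads in WT and 1961 and 6142 in LRRK2 KO. Oligodendrocyte markers there had 38224 and 20329 RNA-Seq reads in WT and 36545 and 19104 in LRRK2 KO. The log2 changes in LRRK2 KO footprinting and RNA-Seq were 0.06 and -0.42 for astrocyte markers and -0.67 and -0.21 for blood markers. The part of these markers in the results below was not tested. In bulk tissue, fewer cells of a type and less RNA per cell cannot be told apart.

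Levels of the members were compared per kb of CDS, within 1 group and assay. In the non-TG control of the GS/DA table, *Cyfip2* had by far the highest footprinting level at 3657 normalized reads per kb, followed by *Fxr1* at 878, *Fxr2* at 746, *Pum2* at 626, *Cpeb3* at 623, *Fmr1* at 583, *Cpeb4* at 540 and *Cyfip1* at 432. The median of all transcripts was 478. In that order the libraries of *Pum2* and *Cpeb3*, and those of *Cpeb3* and *Fmr1*, overlapped, and the other neighbours did not. RNA-Seq gave a different order. *Cyfip2* was again highest at 3922 reads per kb, followed by *Fxr2* at 1435, *Pum2* at 804, *Fxr1* at 398, *Cpeb4* at 340, *Cyfip1* at 313, *Cpeb3* at 249 and *Fmr1* at 184, against a median of 487. There only *Cyfip2* and *Fxr2*, and *Fxr2* and *Pum2*, were separated beyond their libraries. *Fmr1* was thus last of the 8 by RNA-Seq and near the middle of all transcripts by footprinting.

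WT in the KO table gave other orders, with less separation in footprinting. Its footprinting levels were 1177 normalized reads per kb for *Cyfip2*, 219 for *Fxr2*, 217 for *Fxr1*, 198 for *Cpeb3*, 177 for *Fmr1*, 161 for *Cpeb4*, 147 for *Pum2* and 129 for *Cyfip1*, and only *Cyfip2* was separated from its neighbour. The RNA-Seq levels were 2251 for *Cyfip2*, 546 for *Fxr2*, 461 for *Pum2*, 299 for *Cpeb4*, 262 for *Fxr1*, 205 for *Cpeb3*, 189 for *Fmr1* and 159 for *Cyfip1*. Libraries of *Cyfip2* and *Fxr2*, of *Fxr1* and *Cpeb3*, and of *Fmr1* and *Cyfip1* did not overlap, so that *Cyfip1* and not *Fmr1* was last. *Cyfip2* was separated from the member next to it in every group and assay in which its libraries were resolved. The transgenic and LRRK2 KO groups kept *Cyfip2* first in both assays, *Fxr2* second in RNA-Seq and *Cyfip1* last in footprinting.

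TE was the ratio of the footprinting to the RNA-Seq mean, and it spread the members across the whole range of transcripts. In the non-TG control of the GS/DA table, *Fmr1* lay at percentile 98.4 of all transcripts, *Cpeb3* at 95.5, *Fxr1* at 93.0, *Cpeb4* at 80.0, *Cyfip1* at 72.1, *Cyfip2* at 42.6, *Pum2* at 30.3 and *Fxr2* at 12.6. In WT the percentiles were 85.2 for *Cpeb3*, 83.2 for *Fmr1*, 73.8 for *Fxr1*, 72.2 for *Cyfip1*, 35.3 for *Cpeb4*, 33.2 for *Cyfip2*, 18.6 for *Fxr2* and 10.5 for *Pum2*. *Fmr1*, *Cpeb3* and *Fxr1* were the highest 3 and *Fxr2* and *Pum2* the lowest 2 by group means in both controls. Single sets did not keep this order: in non-TG control, *Cyfip2* was above *Fxr1* in set 1 and *Pum2* was above *Cyfip2* in set 2. The paralogs *Fxr1* and *Fxr2* stood on opposite sides of the median by group means.

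The TE difference is the log2 TE of a genotype minus that of its control, from group means, and its *z* score over all transcripts of a table was read at cutoffs of 1.5 and -1.5, the rule the study used. This describes group means and is no test. In GS TG, 2 of 8 members had a *z* of 1.5 or more, as did 8.01% of all transcripts, and 0 had a *z* of -1.5 or less, as did 3.91%. They were *Fmr1*, with a TE difference of 0.61 (*z* = 2.57, rank 122 of 8576), and *Fxr1*, at 0.52 (*z* = 2.16, rank 245). *Pum2* lay just inside the cutoff at 0.37 (*z* = 1.49). The remaining TE differences were 0.30 for *Cpeb4*, 0.21 for *Cyfip2*, 0.18 for *Cyfip1*, 0.03 for *Cpeb3* and -0.19 for *Fxr2*. The median of the members was 0.26, against 0.02 over all transcripts. None passed against the GS/DA table's control libraries (0 of 8), with a TE difference of 0.42 for *Fmr1* (*z* = 1.43), 0.37 for *Pum2* (*z* = 1.23), 0.29 for *Fxr1* (*z* = 0.97), 0.27 for *Cpeb4*, 0.24 for *Cyfip1*, 0.19 for *Cpeb3*, 0.07 for *Cyfip2* and -0.24 for *Fxr2*. Without the GS TG RNA-Seq library of set 2, *Fmr1* was at -0.23 (*z* = -0.565) and *Fxr1* at -0.32 (*z* = -0.678). Without the GS TG footprinting library of set 1 they were at 0.52 (*z* = 1.54) and 0.49 (*z* = 1.45). Leaving out 1 library leaves 1 set in that group, so these values include the difference between sets. That difference in GS TG RNA-Seq was 8.36-fold for *Fmr1* and 8.5-fold for *Fxr1*. Single-library pairings within an RNA-Seq set, with the GS/DA table's control libraries, gave 0.01 to 1.79 for *Fmr1* and 0.10 to 1.12 for *Fxr1*.

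In GS/DA TG, 3 members had a *z* of -1.5 or less, as did 7.36% of all transcripts, and 0 had a *z* of 1.5 or more, as did 3.65%. The TE difference was -0.80 for *Fxr1* (*z* = -4.15, rank 23 from the bottom), -0.69 for *Fmr1* (*z* = -3.55, rank 47 from the bottom) and -0.37 for *Pum2* (*z* = -1.67, rank 508 from the bottom). *Cpeb4*, at -0.32 (*z* = -1.42), and *Cpeb3*, at 0.17 (*z* = 1.41), lay just inside the cutoffs. *Cyfip2* had a TE difference of -0.08, *Cyfip1* of -0.04 and *Fxr2* of -0.01. The median of the members was -0.20, against -0.05 over all transcripts. This count depended on single RNA-Seq libraries. Without the non-TG control RNA-Seq library of set 2, *Fmr1* was at -0.10, *Fxr1* at -0.08 and *Pum2* at 0.26, all inside the cutoffs. Without the GS/DA TG RNA-Seq library of set 1, *Fmr1* was at 1.75 (*z* = 1.6) and *Fxr1* at 1.89 (*z* = 1.75). Each leaves 1 group with a single RNA-Seq set, so these values include the difference between sets and not only that between genotypes. With footprinting and RNA-Seq of the same set number, 1 or 2, the TE difference was -0.89 and 0.67 for *Fmr1* and -0.90 and 0.34 for *Fxr1*. With the mean of log2 values of single libraries in place of the log2 of the mean, 1 of 7 members passed, *Fxr1* at -0.28 (*z* = -1.83).

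In LRRK2 KO, 0 of 8 members passed either cutoff, against 6.23% of all transcripts at the upper and 6.02% at the lower. The TE difference was 0.23 for *Cpeb3*, 0.16 for *Cyfip1*, 0.15 for *Fmr1*, 0.10 for *Cpeb4*, 0.05 for *Fxr1*, 0.03 for *Pum2*, -0.04 for *Cyfip2* and -0.24 for *Fxr2*. All of these lay within 1 *z* unit of the mean. The median of the members was 0.08, against 0.02 over all transcripts.

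The TE differences of the transgenic comparisons came with RNA-Seq values that differed and footprinting values that hardly did. In GS TG the log2 footprinting changes of the 8 members ran from -0.14 to 0.06 and the RNA-Seq changes from -0.60 for *Fmr1* to 0.11 for *Fxr2*. For GS/DA TG footprinting changes ran from -0.12 to 0.07 and RNA-Seq changes from -0.14 for *Cpeb3* to 0.82 for *Fxr1*. The median RNA-Seq change of the members was -0.30 in GS TG and 0.19 in GS/DA TG, against -0.02 and 0.06 over all transcripts, and their median footprinting change was -0.06 and -0.01, against 0.00 and -0.01. In LRRK2 KO footprinting changes ran from -0.07 to 0.13 and RNA-Seq changes from -0.14 to 0.18, with medians of 0.03 and -0.06.

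**Figure D1:**
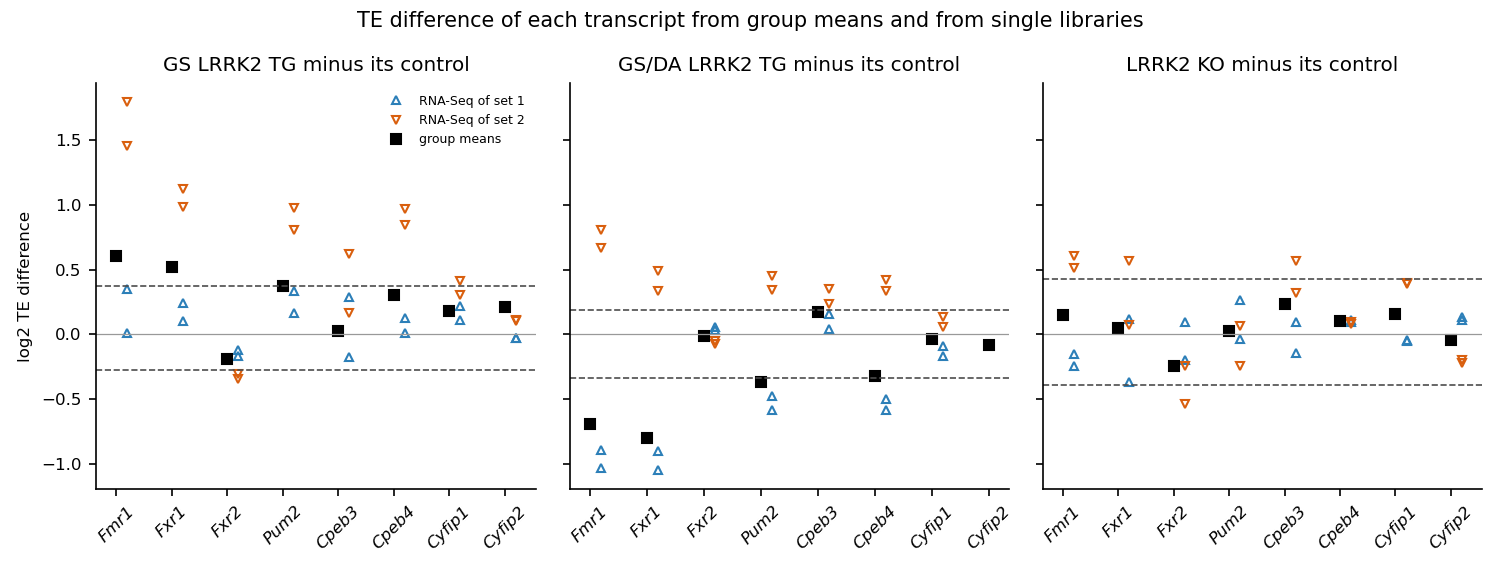
log2 TE difference of each member (horizontal axis) in GS TG, GS/DA TG and LRRK2 KO. Squares are group means, triangles are single-library pairings with the RNA-Seq libraries of set 1 (pointing up) or set 2 (pointing down), and dashed lines mark z scores of 1.5 and -1.5; the GS TG triangles use the GS/DA table's control libraries. In GS/DA TG the pairings of Fmr1 with set 1 lie at -0.89 and -1.03 and those with set 2 at 0.80 and 0.67, on opposite sides of 0.

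*Fmr1* (chrX:65931716-65971138, plus strand, NCBIM37) encodes FMRP. In the GS/DA table its normalized footprinting reads were 1037 and 1170 in the non-TG control libraries of set 1 and set 2 and 1089 and 1116 in GS/DA TG, whose libraries both lay between the controls. Its RNA-Seq reads were 523 and 172 in non-TG control and 1018 and 104 in GS/DA TG. Set 1 was high and set 2 low in both groups, and the GS/DA TG libraries lay outside the controls on both sides, so that the log2 RNA-Seq change was 0.96 in set 1 and -0.73 in set 2. The TE difference was -0.89 and 0.67 when footprinting and RNA-Seq had the same set number, 1 or 2. In GS TG, on 1 scale with those controls, footprinting reads were 866 and 775 against 781 and 884 in non-TG control, and RNA-Seq reads were 426 and 50.9 against 490 and 159. The footprinting libraries overlapped. Both GS TG RNA-Seq libraries lay below their matched control, by -0.20 in set 1 and -1.64 in set 2, and the set 2 library held 35 reads of *Fmr1*. In LRRK2 KO footprinting reads were 368 and 314 against 373 and 297 in WT, and RNA-Seq reads were 397 and 261 against 339 and 376, where the LRRK2 KO library of set 1 was the highest and that of set 2 the lowest.

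*Fxr1* (chr3:33919001-33968264, plus strand) followed *Fmr1* closely. In the GS/DA table its footprinting reads were 1985 and 1741 in non-TG control and 2117 and 1674 in GS/DA TG, and its RNA-Seq reads were 1383 and 304 in non-TG control and 2748 and 232 in GS/DA TG. The GS/DA TG libraries enclosed the controls in both assays. The log2 RNA-Seq change was 0.99 in set 1 and -0.39 in set 2, and the TE difference with equal set numbers was -0.90 and 0.34. In GS TG, RNA-Seq reads were 1114 and 131 against 1296 and 281 in non-TG control, and footprinting reads were 1380 and 1337 against 1495 and 1315. RNA-Seq was below the matched control in both sets, by -0.22 and -1.10, while the GS TG footprinting libraries lay between the controls. In LRRK2 KO footprinting reads were 491 and 457 against 554 and 368 in WT and RNA-Seq reads 634 and 469 against 555 and 558. WT enclosed LRRK2 KO in footprinting, and LRRK2 KO enclosed WT in RNA-Seq.

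*Fxr2* (chr11:69446492-69466799, plus strand) did not share this pattern. In the GS/DA table its RNA-Seq reads were 2865 and 2937 in non-TG control and 2721 and 3005 in GS/DA TG, and its footprinting reads were 1469 and 1548 against 1427 and 1531. The libraries of each group were close together and the groups overlapped. In GS TG its RNA-Seq reads were 2875 and 3296 against 2684 and 2712 in non-TG control, and it was the only member of 8 whose RNA-Seq groups did not overlap, as was so for 6.52% of all transcripts. Its footprinting reads there were 1058 and 1150 against 1106 and 1170 and overlapped. In LRRK2 KO RNA-Seq reads were 1044 and 1449 against 1052 and 1156 in WT, and footprinting reads were 429 and 416 against 405 and 480. WT footprinting enclosed that of LRRK2 KO, and the reverse was found in RNA-Seq.

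*Cyfip1* (chr7:63097115-63186070, plus strand) and *Cyfip2* (chr11:46007357-46125852, minus strand) encode the CYFIP partners of FMRP. *Cyfip1* had RNA-Seq reads of 1477 and 1045 in non-TG control and 1690 and 1021 in GS/DA TG, and footprinting reads of 1837 and 1645 against 1971 and 1675. In GS TG its RNA-Seq reads were 1250 and 762 against 1383 and 965 in non-TG control, and its footprinting reads were 1349 and 1304 against 1384 and 1242. The groups overlapped in both comparisons and both assays. The same held in LRRK2 KO, with footprinting reads of 607 and 456 against 593 and 447 in WT and RNA-Seq reads of 659 and 510 against 623 and 654. *Cyfip2* was the only member clearly higher in set 2 than in set 1 of the transgenic RNA-Seq libraries, at 9154 and 20988 reads in non-TG control, 9892 and 19597 in GS/DA TG and 8050 and 16567 in GS TG, against 8577 and 19378 in non-TG control on the scale of GS TG. The genotype groups overlapped their controls in each case. In footprinting *Cyfip2* had 9635 and 9904 reads in GS TG against 10468 and 10734 in non-TG control, with no overlap, while the GS/DA TG libraries were not resolved and their mean was 12973 against 14053. In LRRK2 KO its footprinting reads were 4784 and 4336 against 4776 and 4271 in WT, and its RNA-Seq reads were 8499 and 9474 against 9181 and 8120. Here LRRK2 KO and WT overlapped in both assays.

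*Pum2* (chr12:8680940-8759387, plus strand) encodes a Pumilio repressor of translation. Like those of *Cpeb4*, *Cyfip1* and *Cyfip2*, its RNA-Seq changes had the signs of *Fmr1* and *Fxr1* in both sets of the transgenic comparisons. This did not hold for *Pum2* in LRRK2 KO. In the GS/DA table its RNA-Seq reads were 4033 and 1199 in non-TG control and 5652 and 886 in GS/DA TG, with log2 changes of 0.49 in set 1 and -0.44 in set 2, and its footprinting reads were 2253 and 1819 against 2114 and 1834. The TE difference with equal set numbers in both assays was -0.58 and 0.45. GS/DA TG enclosed the controls in RNA-Seq, and the controls enclosed it in footprinting. In GS TG, RNA-Seq reads were 3255 and 613 against 3779 and 1107 in non-TG control, with changes of -0.22 and -0.85, and footprinting reads were 1641 and 1491 against 1697 and 1374. In LRRK2 KO RNA-Seq reads were 2037 and 1189 against 1992 and 1009 in WT, and footprinting reads were 548 and 496 against 550.2 and 403. Groups overlapped in all 4 of these pairs of values.

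The CPEB genes *Cpeb3* (chr19:37095781-37283091, minus strand) and *Cpeb4* (chr11:31772211-31835634, plus strand) encode regulators of poly(A) tails that act in synaptic plasticity. *Cpeb4* had RNA-Seq reads of 1042 and 448 in non-TG control and 1461 and 332 in GS/DA TG, with log2 changes of 0.49 in set 1 and -0.43 in set 2. Its footprinting reads were 1195 and 1169 against 1119 and 1158, with no overlap. The TE difference of *Cpeb4* with equal set numbers in both assays was -0.58 and 0.42. In GS TG its RNA-Seq reads were 823 and 195 against 976 and 413 in non-TG control, and its footprinting reads were 831 and 749 against 900.3 and 883. The RNA-Seq groups overlapped and the footprinting groups did not. In LRRK2 KO its footprinting reads, 404 and 301 against 402 and 302 in WT, and its RNA-Seq reads, 734 and 488 against 790.1 and 519, overlapped.

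*Cpeb3* differed less between RNA-Seq libraries of a group than *Cpeb4*. Its RNA-Seq reads were 646 and 431 in non-TG control and 616 and 360 in GS/DA TG, and its footprinting reads were 1393 and 1298 against 1365 and 1378. In GS TG RNA-Seq reads were 545 and 284 against 605 and 398 in non-TG control and footprinting reads 838 and 1076 against 1049 and 980. Both RNA-Seq sets of both transgenic groups lay below their matched control, within the spread of the control libraries in set 1 and below it in set 2. In LRRK2 KO its RNA-Seq reads were 399 and 402 against 369 and 515 in WT, and its footprinting reads were 485 and 424 against 420 and 435, with overlap in both.

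**Figure D2:**
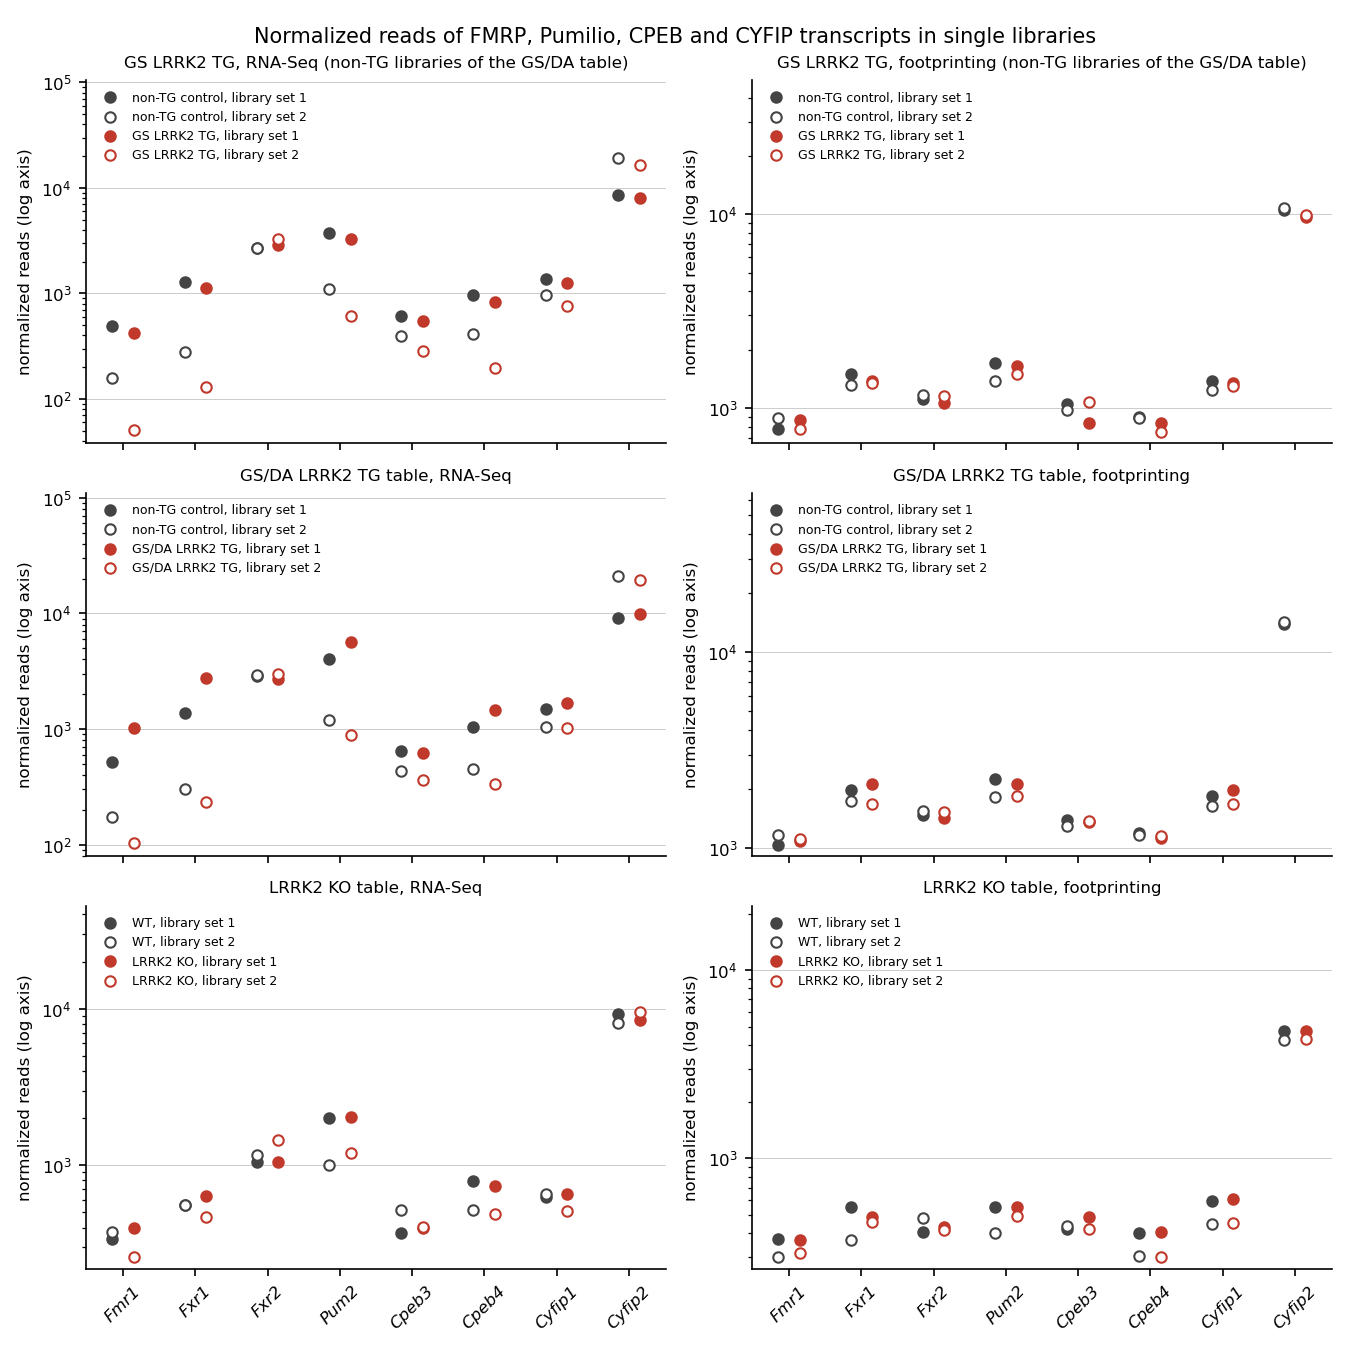
Normalized reads of each member in single libraries, on a log axis, with RNA-Seq on the left and footprinting on the right and 1 row of panels for each comparison. Grey points are non-TG control or WT, red points the LRRK2 genotype, filled points set 1 and open points set 2; the GS TG row uses the GS/DA table's control libraries. RNA-Seq of Fmr1 ranges from 104 to 1018 in the GS/DA table and its footprinting from 1037 to 1170.

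Counted over the members, footprinting groups did not overlap for 2 of 8 members in GS TG (*Cpeb4* and *Cyfip2*), 1 of 7 in GS/DA TG (*Cpeb4*) and 0 of 8 in LRRK2 KO, against 22.3%, 24.2% and 12.6% of all transcripts. RNA-Seq groups did not overlap for 1, 0 and 0 of 8 members, against 6.52%, 3.38% and 14% of all transcripts. In GS/DA TG the RNA-Seq changes in set 1 and set 2 had opposite signs for 7 of 8 members, all but *Cpeb3*, as for 63.6% of 6975 transcripts with group means above 300, in LRRK2 KO for 6 of 8 members, as for 53.8% of 4448 transcripts, and in GS TG for 0 of 8 members, as for 32.4% of 6592 transcripts. The difference between RNA-Seq libraries of 1 group was large for the members that passed a cutoff. Set 1 over set 2 in non-TG control was 4.55-fold for *Fxr1*, 3.36-fold for *Pum2*, 3.04-fold for *Fmr1*, 2.33-fold for *Cpeb4*, 1.5-fold for *Cpeb3*, 1.41-fold for *Cyfip1*, 0.975-fold for *Fxr2* and 0.436-fold for *Cyfip2*. The same ratio in GS/DA TG was 11.9-fold for *Fxr1*, 9.83-fold for *Fmr1*, 6.38-fold for *Pum2* and 4.41-fold for *Cpeb4*. These 4 members had the lowest CDS GC content of the 8, at 43.6% for *Fmr1*, 43.9% for *Fxr1*, 46.0% for *Pum2* and 48.9% for *Cpeb4*, followed by 49.6% for *Cyfip1*, 53.7% for *Cyfip2*, 55.4% for *Fxr2* and 59.6% for *Cpeb3*, where the median of 8206 genes was 52.8% and the quartiles were 48.3% and 57.1%. With the trend on CDS GC content removed from the TE differences, *Fmr1* was at -0.57 (*z* = -3.09), *Fxr1* at -0.68 (*z* = -3.79) and *Pum2* at -0.31 (*z* = -1.44), no longer past the cutoff, in GS/DA TG. The values in GS TG were 0.43 for *Fmr1* (*z* = 1.99), 0.35 for *Fxr1* (*z* = 1.57) and 0.26 for *Pum2* (*z* = 1.09). The part of the library difference in the TE differences was not tested beyond these values.

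The tests used limma on log2 reads of single libraries with a pseudocount of 10, fitted to all transcripts, at an adjusted p under 0.05. No member was called. In GS/DA TG 0 of 7 members were called in footprinting, 0 of 8 in RNA-Seq and 0 of 7 in TE, against 0% of 8428, 0% of 8501 and 0% of 8403 transcripts tested; limma gave 155, 0 and 0 transcripts and no member at an unadjusted p under 0.05. In LRRK2 KO 0 of 8 members were called in each of the 3 fits, against 0% of 9554, 0% of 9553 and 0% of 9551 transcripts, of which 16, 7 and 4 had an unadjusted p under 0.05 and none was a member. GS TG could be fitted only with the GS/DA table's control libraries, a choice made after the data were seen. There 0 of 8 members were called in each fit, against 0% of 8449, 0% of 8529 and 0% of 8432 transcripts, of which 112, 0 and 0 and no member had an unadjusted p under 0.05. The spread between libraries was wide in RNA-Seq: the log2 change of *Fmr1* in GS/DA TG was 0.13 (SE 1.33) and that of *Fxr1* 0.30 (SE 1.53), and their TE differences were -0.13 (SE 1.5) and -0.29 (SE 1.74). A p that misses the threshold does not show that the values were equal.

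With library set as a block, 0 members were called as well, while limma called 23 transcripts in footprinting of GS/DA TG, 2 in that of GS TG, 15 in that of LRRK2 KO, 11 in RNA-Seq of LRRK2 KO and 0 in the other fits. The share of all transcripts at an unadjusted p under 0.05 in these blocked limma fits of footprinting, RNA-Seq and TE was 14%, 1.6% and 0.405% in GS/DA TG, 3.19%, 4.16% and 1.93% in LRRK2 KO and 7.4%, 14.2% and 7.91% in GS TG. The block reduced the SE of the RNA-Seq change in GS/DA TG to 0.31 for *Fmr1* and 0.27 for *Fxr1*. The sets were matched from these same reads, so SEs and p-values of the blocked fits can be too small. The fit of RNA-Seq in GS TG was the only blocked one with members at an unadjusted p under 0.05. In limma they were 4 of 8 members, against 14.2% of all transcripts: *Cpeb4* with a log2 change of -0.64 (SE 0.23, unadjusted p = 0.0266), *Fmr1* with -0.83 (SE 0.30, unadjusted p = 0.0285), *Fxr1* with -0.63 (SE 0.23, unadjusted p = 0.0307) and *Pum2* with -0.53 (SE 0.20, unadjusted p = 0.0378). Their limma adjusted p was 0.347. When a GC trend was removed from each library as well, limma gave 2 of 8 members such a p, against 10.8% of all transcripts, *Cpeb4* at -0.48 (unadjusted p = 0.0409) and *Cpeb3* at -0.45 (unadjusted p = 0.0344), and *Fmr1*, *Fxr1* and *Pum2* did not. Scaling by total recovered reads moved the median footprinting change of all transcripts to -0.14 in GS/DA TG and -0.28 in GS TG, and the median TE difference to -0.15 and -0.22. In that scaling limma gave *Cpeb4* at -0.46 and *Cyfip2* at -0.40 an unadjusted p of 0.0158 and 0.0221 in footprinting of GS TG, where 19.8% of all transcripts had a p under 0.05.

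Partners and targets of the members were described by 4 lists of genes, with the *z* cutoffs of the TE difference and the medians of all transcripts, 0.02 in GS TG, -0.05 in GS/DA TG and 0.02 in LRRK2 KO. Besides genes past a cutoff, genes with the lowest or highest values are named among transcripts with all 4 group means at 500 or more. The list counts stand beside shares of all transcripts past the upper and lower cutoff of 8.01% and 3.91% in GS TG, 3.65% and 7.36% in GS/DA TG and 6.23% and 6.02% in LRRK2 KO. The TE differences of listed genes were not computed for single libraries. Of the WAVE complex partners of the CYFIP proteins, 7 of 10 were in all tables, and 1 of 7 was past the upper cutoff in GS TG, against 8.01% of all transcripts, and 0 in the other comparisons, with medians of 0.13, -0.11 and 0.06. It was *Nckap1*, the subunit that pairs with CYFIP, at 0.41 in GS TG and -0.30 in GS/DA TG. *Abi2* was lowest in GS TG at 0.02, and *Wasf1*, the neuronal WAVE protein, was at 0.04 in GS/DA TG and 0.02 in LRRK2 KO, where *Rac1* was highest at 0.26. The lists were counted in the 9 limma fits without and the 9 with the block, at a pseudocount of 10, and not in the alternative fits. Neither called a gene of this list, and none had an unadjusted p under 0.05 without the block. With the block there were 1 of 6 in footprinting and 1 of 7 in RNA-Seq of GS TG, against the shares of 7.4% and 14.2% given above.

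Of the FMRP granule partners, proteins found with FMRP in RNA granules or in translational control, 17 of 22 were in all tables, with median TE differences of 0.21, -0.24 and 0.18. In GS TG 1 of 17 was past the upper cutoff, against 8.01% of all transcripts, and 0 past the lower, namely *Dicer1*, the microRNA-processing enzyme, at 0.45. The GS/DA TG values put 4 of 17 past the lower cutoff, against 7.36% of all transcripts, *Syncrip* at -0.40, *Nufip2* at -0.40, *Purb* at -0.39 and *Pura* at -0.36, and 1 past the upper, the cap-binding protein *Eif4e* at 0.27. *Syncrip* and the purine-rich element binders *Pura* and *Purb* are RNA-binding proteins of transport granules, and *Nufip2* is an FMRP-interacting protein. In LRRK2 KO 0 passed in either direction, between *Ybx1* at -0.12 and the stress granule protein *G3bp2* at 0.42. By that rule *Ybx1* was also lowest in GS TG at -0.12 and *Caprin1* highest at 0.25. These limma fits called 0 of this list, with 0 values at an unadjusted p under 0.05 without the block. With it there were 7 of 17 in RNA-Seq and 1 of 17 in TE of GS TG, against 14.2% and 7.91% of all transcripts, and 0 in the other 7 fits.

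The Pumilio and CPEB machinery, which includes the deadenylase subunits and the polyadenylation factors that these proteins recruit, had 21 of 29 genes in all tables and 23 in the KO table. In GS TG 2 of 21 were past the upper cutoff, against 8.01% of all transcripts, and 0 past the lower, the cytoplasmic poly(A) polymerase *Papd4* at 0.53 and the CCR4-NOT subunit *Cnot2* at 0.38. In GS/DA TG 1 passed in each direction, the deadenylase *Parn* at 0.19 and the decapping factor *Patl1* at -0.36, and *Cnot2* was at -0.33. In LRRK2 KO 0 passed, between *Sympk* at -0.16 and *Cnot1* at 0.10. *Sympk*, a scaffold of cytoplasmic polyadenylation, was also lowest in GS TG at -0.14. The medians were 0.01, -0.01 and 0.03. These limma fits called 0, with 1 value at an unadjusted p under 0.05 without the block. With it there were 3 of 21 in footprinting of GS/DA TG and 3 of 21 in RNA-Seq of GS TG, against 14% and 14.2% of all transcripts, and 3 more over the other 7 fits.

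Of 25 mRNAs known as FMRP targets, 21 were in all tables. In GS TG 0 passed a cutoff, and the NMDA receptor subunit *Grin2b* was lowest at -0.26. For GS/DA TG 1 passed in each direction, with the postsynaptic scaffold *Dlgap1* past the upper cutoff at 0.22. In LRRK2 KO 2 of 21 were past the lower cutoff, against 6.02% of all transcripts, and 0 past the upper, the scaffolds *Dlgap3* at -0.54 and *Shank3* at -0.39, whose RNA-Seq changes were 0.39 and 0.36 and footprinting changes -0.16 and -0.03. There *Dlg4* was at -0.16 and the glutamate receptor *Grm5* at 0.40. The medians of the list were -0.01, -0.13 and 0.00. These limma fits called 0, with 0 values at an unadjusted p under 0.05 without the block. With it there were 6 of 20 in footprinting of GS/DA TG and 4 of 20 in RNA-Seq of GS TG, against 14% and 14.2% of all transcripts, and 7 more over the other 7 fits.

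The transcripts most like each member were taken by the smallest Euclidean distance over 6 log2 changes, footprinting and RNA-Seq in the 3 comparisons, among 1663 transcripts with all 12 group means at 500 or more. Among the nearest were *Zc3h15* (0.216) to *Fmr1*, where the median distance of all was 0.906, and *Kif5b* (0.206) and *Zc3h15* (0.245) to *Fxr1*, where it was 0.98. *Zc3h15* thus stood near both. *Aff4* (0.0884) and *Ash1l* (0.119) were nearest to *Pum2*, *Hnrnpa2b1* (0.106) and *Hnrnpu* (0.127) to *Cpeb4*, *Eif4a1* (0.133) and *Hnrnpf* (0.136) to *Cpeb3*, and *Ptpn5* (0.0688) and *Akr1a4* (0.0977) to *Fxr2*. Of 1662 others, *Dlat* (0.0575) and *Atrn* (0.0718) were nearest to *Cyfip1* and *Plcl2* (0.122) and *Hnrnpul2* (0.130) to *Cyfip2*. The 2 transgenic comparisons share controls, so these changes are not independent.

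The start codon contexts of the members are shown because footprinting counts ribosomes on the CDS that begins there, as 9 bases before the ATG and 1 after, with the ATG in capitals. They were read on the coding strand of NCBIM37 at chrX:65931983-65931995 for *Fmr1*, chr3:33919026-33919038 for *Fxr1*, chr11:69446811-69446823 for *Fxr2*, chr12:8704906-8704918 for *Pum2*, chr19:37249461-37249473 (minus strand) for *Cpeb3*, chr11:31772279-31772291 for *Cpeb4* and chr11:46105128-46105140 (minus strand) for *Cyfip2*, while that of *Cyfip1* on chromosome 7 crosses an exon junction. Of 7797 genes with such a context, 86.5% had a purine at the place 3 before the ATG and 52.4% a G after it.
Fmr1: gacgagaagATGg
Fxr1: ggttccaacATGg
Fxr2: ggcggcgccATGg
Pum2: gtggatgaaATGa
Cpeb3: gcgcaaaccATGc
Cpeb4: aaataataaATGg
Cyfip1: cagaccaggATGg
Cyfip2: gccgcagccATGa

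The CGG repeat of the *FMR1* 5′UTR, whose expansion causes fragile X syndrome in people, was looked up in the members' 5′UTRs because it is the known regulatory sequence of this gene. The longest run in mouse was 6 repeats in *Fmr1* (chrX:65931899-65931916, plus strand) and also 6 in *Fxr2* (chr11:69446563-69446580, plus strand), and it was 3 or fewer in the other 6 members. Of 8206 genes, 1.02% had a run of 6 or more. The tabulated 5′UTR folding energy was -143.2 kcal/mol for *Fmr1*, -3 for *Fxr1*, -209.1 for *Fxr2*, -237.94 for *Pum2*, -103.3 for *Cpeb3*, -427.34 for *Cpeb4*, -122.6 for *Cyfip1* and -141.2 for *Cyfip2*, with a median of -91.15 over the transcripts of the transgenic tables.
Fmr1: CGGCGGCGGCGGCGGCGG
Fxr2: CGGCGGCGGCGGCGGCGG

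The Pumilio word TGTANATA was searched on the coding strand of the longest annotated 3′UTR of each gene, since it is the element that the *Pum2* protein binds. It was found in 28.1% of 8154 genes, and in 43.4% of 2012 genes with a 3′UTR of 2 to 4 kb. Among the members it occurred 2 times in *Fmr1* (chrX:65970466-65970489 and chrX:65970527-65970550), 2 times in *Pum2* itself (chr12:8756963-8756986 and chr12:8757216-8757239) and 1 time in *Cpeb3* (chr19:37096610-37096633, minus strand), and not in the other 5. The windows are shown with the word in capitals. The CPEB word TTTTAT, found in 57.8% of these 3′UTRs and in 83.0% of those of 2 to 4 kb, occurred 4 times in *Fmr1*, 6 times in *Pum2*, 6 times in *Cpeb3* and 11 times in *Cpeb4* and not in the 3′UTRs of *Fxr1*, *Fxr2*, *Cyfip1* and *Cyfip2*. The 3′UTRs that held either word were 2312 bases in *Fmr1*, 5886 in *Pum2*, 3569 in *Cpeb3* and 4102 in *Cpeb4*, and those without were 409 in *Fxr1*, 598 in *Fxr2*, 538 in *Cyfip1* and 2445 in *Cyfip2*. A match describes the sequence and not binding.
Fmr1: taaaatacTGTAGATAattaacca
Fmr1: atattctcTGTACATAttagcgac
Pum2: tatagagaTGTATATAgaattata
Pum2: tacagaatTGTATATActtataat
Cpeb3: ttttgtttTGTAAATAaatgtgcc

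Paralogs can share reads when their CDS holds identical stretches. Over stretches of 28 bases, a typical footprint, no pair of the 8 members shared any. Allowing 1 mismatch, 48 of 4051 stretches of *Cyfip1* matched *Cyfip2* and 2 of 2216 of *Cpeb3* matched *Cpeb4*. The longest identical stretch of *Cyfip1* (chr7:63143223-63143246, plus strand) and *Cyfip2* (chr11:46084117-46084140, minus strand) was 24 bases, and it is shown because it is the closest that any 2 members come to a shared footprint. On the opposite strand, annotated exons of *Dnajc19* overlap 178 of 2121 bases of the CDS of *Fxr1*. Exons of *A330032B11Rik* overlap 67 of 2159 bases of the CDS of *Cpeb3*, and those of *C030019I05Rik* 9 of 3843 of *Cyfip2*. Coding and other parts of these exons were not separated. Whether the counting used strand is not given in the sources used here, so reads in these bases cannot be told apart.
Cyfip1 and Cyfip2: cagtacaacatctgtgagcagatg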

How the data were processed

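The authors aligned reads to mm9 with Bowtie2 2.2.2 and TopHat2 2.0.11, allowing at most 1 mismatch, after base calling with CASAVA 1.8. Reads within the union of a gene's CDS isoforms were counted and normalized with DESeq 1.20. The signal values used here are group means of normalized reads as deposited, 1 table for each comparison. The other values are 5′UTR folding energies, taken by the authors from UCSC mm9 as the lowest over isoforms. Columns of TE, its difference and z scores were deposited too and were not used; these were computed again from the group means. Members were chosen by gene symbol, and the members and gene lists were chosen with earlier results of these data known. Library counts were recovered from the means, tested with limma 3.58.1 (R 4.3.3), and described with Python 3.11.15, numpy 2.4.6, pandas 2.3.3 and scipy 1.17.1. Genes named from the lists passed a z cutoff or had the lowest or highest TE difference. The recovery and the fits were tested on simulated data first.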

Additional observations from a re-analysis of the deposited data

How the results depend on the processing

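In all, 526 alternative values were computed for 96 results. No paired analysis was possible because the columns carry no replicate number to pair the labelled libraries by; the only pairing used was the block by library set, which was matched by values. Planned but not run was a block by replicate number, for that reason. Limma and the mean of log2 values of single libraries for GS LRRK2 TG with its own control columns were planned but not run, since those libraries were not resolved.

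The number of members called by limma was 0 in all 111 alternative fits; most of these called no transcript at all, so the count had little room to differ.

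In GS LRRK2 TG 2 members were past the z cutoff. The count was 5 (4 up, 1 down) at a cutoff of 1 and 0 with the GS/DA table's control libraries, an alternative chosen after seeing the data. Leaving out 1 library gave 0 (without the RNA-Seq library of set 2) to 3 (without the RNA-Seq library of set 1), and 1 without the footprinting library of set 1.

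In GS/DA LRRK2 TG 3 members were past the cutoff. The count was 5 (1 up, 4 down) with z from the median and scaled MAD, 5 (1 up, 4 down) at a cutoff of 1 and 1 with the mean of log2 values of single libraries. Leaving out 1 library gave 0 (without the non-TG control RNA-Seq library of set 2) to 3 (without the non-TG control footprinting library of set 2). Without the GS/DA LRRK2 TG RNA-Seq library of set 1, Fmr1 was at 1.75 and Fxr1 at 1.89. Leaving out 1 library leaves 1 set in its group, here and in GS LRRK2 TG. Such values and counts therefore include the difference between sets and not only that between genotypes. With 1 library per group from set 2, the TE differences reversed to 0.67 for Fmr1, 0.34 for Fxr1 and 0.45 for Pum2. The cause was not tested.

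In LRRK2 KO the count was 0 in every alternative.

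Over the 3 comparisons, 15 footprinting changes, 9 RNA-Seq changes and 7 TE differences of members moved by more than 1 SD between libraries, all with 1 library per group, besides the 3 reversed TE differences above. The other 103, 111 and 108 values moved by less, which can include a change of sign. With 1 library per group from set 2, the TE difference of Cpeb4 in GS/DA LRRK2 TG also changed sign, from -0.32 to 0.42. With the longest CDS of a gene, 10 of 12 orders by level per kb stayed the same, and in footprinting Fxr1 and Fxr2 changed places in WT and Cpeb4 and Pum2 in LRRK2 KO, neighbours whose libraries overlapped.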

Other observations

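Each group holds 2 recovered libraries, each from pooled mice, and other labelled libraries of some groups could not be traced in the means. The sets were matched by values, in each assay separately. The GS table's non-TG columns were not resolved, so its limma fits use the GS/DA table's control libraries, and the Lrrk2 footprinting mean of non-TG control differs between these tables. RNA-Seq libraries of a transgenic or non-TG control group differed with GC content, and footprinting libraries did to a lesser extent. TE differences of group means are descriptions. FMRP, Pumilio and CPEB proteins were not measured.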
